A study of Mus musculus with 8 samples.

Results

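Constant regions at gene ends are stretches of chromatin that carried a called peak of histone H3 lysine 27 acetylation (H3K27ac) in every library of the study and lay close to the start or the end of a gene. Peaks of 8 lists, 1 per library, were merged where they overlapped by 1 bp or more on chromosomes 1 to 19 and X. Of the 113604 merged regions, 16681 came within 2 kb of either end of a protein-coding gene span (RefSeq, GRCm38.p6, the mm10 build), and 8073 of these held a peak in all 8 lists. These 8073 regions are described here. A further 4887 regions had a peak in all 8 lists but lay farther from gene ends, so that 12960 regions were constant in all. The regions were chosen by the presence of a called peak in each list, so that presence, and every count of lists below, is a description.

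The libraries came from primary neurons of C57/BL6 mouse embryos, in 4 groups of 2 libraries: cultures titled CTX, usually short for cortex, and cultures titled MGE, usually the medial ganglionic eminence, from which many cortical interneurons arise, each with and without KCl. All cultures, controls included, had been silenced on day 6 in vitro by an overnight exposure to 1 µM TTX, which blocks sodium channels, and 100 µM D-AP5, which blocks NMDA receptors. On day 7 they received 55 mM KCl, which depolarises neurons, for 2 h, or nothing. The labels leave the material uncertain, since CTX titles carry E14, the source field of every library reads E16, and the cell type field names cortical neurons for MGE libraries as well. The titles number the libraries as biological replicates, but what was kept separate between them is not stated, and a p-value here measures just the spread of these libraries, part of which may be technical.

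Each list had between 36035 and 66827 peaks, over 21.1 to 44.7 Mb. They carry no read counts, so the sequencing depth is unknown. The library with fewest called bases was MGE unstimulated replicate 2 and the one with most was CTX KCl replicate 2. A peak list cannot tell apart fewer cells carrying the mark from less of the mark per cell.

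H3K27ac is placed on nucleosomes next to active promoters and enhancers by the acetyltransferases CBP and p300. At a promoter the mark flanks the transcript start, because the start itself is usually kept free of nucleosomes, and it is typically strongest on the first nucleosomes inside the gene. Promoters of widely expressed genes in mammals mostly lie in CpG islands, stretches rich in C and G in which the CG dinucleotide has been kept, whereas promoters of genes used in few tissues more often lack them.

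The promoters below show what these sequences look like: those of regions among the widest or highest in fold or first in a test, beside that of Alb, a gene of liver cells with no merged region near it. Of the regions highest in fold, Exo1 has no entry in the promoter table and Lrr1, next in rank, is shown. The start of Srgap2 lies 90 bp outside its region, so the bases printed for it are outside that region. Each line gives the 250 bases before the transcript start, read 5′ to 3′ on the strand of the gene, with every CG dinucleotide in capitals. They are from RefSeq (GRCm38.p6): Srgap2 at chr1:131527362-131527611 (minus strand), Brd2 at chr17:34119901-34120150 (minus), Lrr1 at chr12:69168564-69168813 (plus), Spock3 at chr8:62950982-62951231 (plus), Cacna2d1 at chr5:15934441-15934690 (plus), Cachd1 at chr4:100776429-100776678 (plus) and Alb at chr5:90460620-90460869 (plus).
Srgap2: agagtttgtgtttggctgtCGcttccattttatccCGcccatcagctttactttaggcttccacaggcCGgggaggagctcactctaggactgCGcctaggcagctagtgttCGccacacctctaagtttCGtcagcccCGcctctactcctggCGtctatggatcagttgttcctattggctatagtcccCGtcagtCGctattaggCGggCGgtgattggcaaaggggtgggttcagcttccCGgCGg
Brd2: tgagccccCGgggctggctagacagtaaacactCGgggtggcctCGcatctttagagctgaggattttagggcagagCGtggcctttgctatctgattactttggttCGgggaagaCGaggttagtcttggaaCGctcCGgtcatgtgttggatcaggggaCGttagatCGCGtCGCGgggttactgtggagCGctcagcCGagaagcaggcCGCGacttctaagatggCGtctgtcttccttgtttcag
Lrr1: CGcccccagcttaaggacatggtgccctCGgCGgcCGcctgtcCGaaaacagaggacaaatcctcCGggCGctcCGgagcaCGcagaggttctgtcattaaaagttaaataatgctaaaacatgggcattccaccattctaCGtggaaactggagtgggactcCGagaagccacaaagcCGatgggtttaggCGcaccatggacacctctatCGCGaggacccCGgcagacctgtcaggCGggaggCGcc
Spock3: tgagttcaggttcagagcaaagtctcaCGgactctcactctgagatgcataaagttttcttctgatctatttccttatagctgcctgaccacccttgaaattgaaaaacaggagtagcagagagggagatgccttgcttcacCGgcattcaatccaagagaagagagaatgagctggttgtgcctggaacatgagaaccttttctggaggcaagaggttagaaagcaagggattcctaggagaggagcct
Cacna2d1: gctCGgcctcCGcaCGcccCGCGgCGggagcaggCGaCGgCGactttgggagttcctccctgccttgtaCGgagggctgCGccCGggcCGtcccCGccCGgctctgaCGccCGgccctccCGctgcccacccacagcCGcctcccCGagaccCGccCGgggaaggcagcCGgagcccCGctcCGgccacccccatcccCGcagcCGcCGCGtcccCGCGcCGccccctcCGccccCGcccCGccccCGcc
Cachd1: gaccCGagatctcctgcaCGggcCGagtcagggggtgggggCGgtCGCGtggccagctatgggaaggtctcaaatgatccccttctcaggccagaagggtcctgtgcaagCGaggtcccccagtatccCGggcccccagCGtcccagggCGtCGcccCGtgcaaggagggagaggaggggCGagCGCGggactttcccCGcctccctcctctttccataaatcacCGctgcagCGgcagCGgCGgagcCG
Alb: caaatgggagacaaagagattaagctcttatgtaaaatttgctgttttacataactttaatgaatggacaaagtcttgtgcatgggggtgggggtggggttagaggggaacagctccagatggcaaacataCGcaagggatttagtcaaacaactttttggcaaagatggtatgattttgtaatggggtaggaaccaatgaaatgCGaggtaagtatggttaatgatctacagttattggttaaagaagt

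The number of CG dinucleotides was 14 in the Srgap2 promoter, 18 in Brd2, 18 in Lrr1, 36 in Cacna2d1 and 21 in Cachd1. Spock3 had 2, as did Alb. The CpG ratio, the number of CG dinucleotides divided by the number that its C and G content would give by chance, was 0.921 in Cacna2d1, 0.945 in Brd2, 0.710 in Cachd1, 0.152 in Spock3 and 0.261 in Alb. Spock3, whose region was the most widened in MGE cultures, thus had a promoter as poor in CG as that of the liver gene.

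Taken over all promoters in the RefSeq table (21020 windows of 300 bases, from 250 before to 50 after the start), those near constant regions were rich in CG. Of the 8013 promoters within 2 kb of a constant region, 82.0% had a CpG ratio above 0.6, with a median ratio of 0.816 and a median GC content of 62.3%. Of the 4818 promoters near another merged region only, 55.5% were above 0.6, and of the 8189 with no merged region within 2 kb, 10.5%. The share over all promoters was 48.1%. The table holds entries for 79.9% of the protein-coding genes, and genes without an entry are not in these shares.

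Short motifs, counted on both strands of the same 300 bases, also differed in frequency. The GC box GGGCGG, bound by Sp factors, was in 67.9% of promoters near constant regions, in 19.2% of those with no merged region and in 46.6% of all. The ETS motif CCGGAAG was in 21.1%, 3.27% and 11.7%, in the same order. The YY1 motif AAGATGGC was in 5.75%, 1.25% and 3.06%, and the full cyclic AMP response element TGACGTCA, the site of the activity-dependent factor CREB, in 3.84%, 0.647% and 2.26%. In the opposite order, the TATA box TATAAA was in 5.74% near constant regions, 21.5% with no merged region and 12.7% of all, and the AP-1 motif TGANTCA in 3.62%, 11.2% and 7.04%. The CCAAT box was about equally frequent, at 36.7%, 39.9% and 38.5%. A match of letters is a description and not a bound site. The GC box, the ETS motif and the cyclic AMP response element hold a CG themselves, and matches of different motifs may overlap.

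Constant regions were far more often at gene ends than regions found in fewer lists. Of gene-end regions, 48.4% had a peak in all 8 lists, against 5.04% of the 96923 merged regions elsewhere. Seen the other way, gene-end regions made up 5.81% of regions found in 1 list, 30.5% of those in 7 lists and 62.3% of those in 8. Gene-end regions in 7 lists had a median width of 666 bp and a median fold of 3.81, against 994 bp and 4.47 for those in 8. The list they lacked was MGE unstimulated replicate 2 in 342 regions, CTX unstimulated replicate 1 in 327, MGE KCl replicate 1 in 204 and MGE unstimulated replicate 1 in 176, and one of the other 4 lists in 6 to 34 regions each. At the other threshold, the 355 constant regions 1 to 2 kb from a gene end had a median width of 1012 bp and a median fold of 3.95, and the 191 at 2 to 3 kb, just outside, 979 bp and 3.75.

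Most regions lay directly on a gene end. A gene end lay inside 5847 regions (72.4%), and 1871 were outside one by less than 1 kb. A gene start of known strand was within 2 kb of 6469 regions (80.1%), while 142 were near a 3′ end only, and 1375 had only genes whose strand is not in the table used. One gene was within reach of 6216 regions, 2 genes of 1736 and 3 or more of 121. In total 9090 genes, 42.0% of the 21631 protein-coding genes, had an end within 2 kb of a constant region. On the X chromosome the share was 26.7%, and on the autosomes it ran from 34.9% to 51.0%.

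Most housekeeping genes had a constant region at an end, and few markers of non-neuronal cells did. A constant region was found at 23 of 24 ribosomal protein genes, 18 of 20 genes of the proteasome and ubiquitin, 18 of 20 genes of oxidative phosphorylation and 23 of 24 genes of chromatin and transcription, such as Polr2a (the large subunit of RNA polymerase II). Genes of neurons in general had one at 21 of 24, Map2, Stmn2, Gap43 and Ncam1 among them. MAPK feedback regulators had one at 7 of 10, circadian clock genes at 10 of 15 and genes of MGE and GABAergic identity at 13 of 23. Immediate early genes, the first to be transcribed after neuronal activity, had one at 9 of 27 (Jun, Npas4, Nr4a3, Ier2, Ier5, Klf4, Sik1, Gadd45b and Dusp1). Each of the 27 had a peak at an end in at least 1 list, as did 13594 of all 21631 protein-coding genes. Late activity-regulated genes had one at 6 of 24 and cortical glutamatergic identity genes at 6 of 20.

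Markers of other cells the cultures could hold are given beside the 42.0% of all genes. Progenitor genes had a constant region at 3 of 14 (Hes5 and Dll1 among them), astrocyte genes at 2 of 12 (the glutamate transporter Slc1a2 and glutamine synthetase Glul) and endothelial and mural genes at 1 of 12, Vtn, whose region also held an end of Sarm1. Oligodendrocyte lineage, microglia and the genes listed as silent in neurons had 0 of 12, 0 of 12 and 0 of 16. A peak in at least 1 list lay near an end of 12 of 14 progenitor, 9 of 12 astrocyte, 7 of 12 oligodendrocyte lineage, 4 of 12 microglia and 4 of 12 endothelial and mural genes, and of 3 of the 16 silent genes. Of all 21631 protein-coding genes, 13594 had such a peak. Of the defining glutamatergic markers, Slc17a7, Slc17a6, Neurod2, Neurod6 and Tbr1 had no constant region, and of the MGE markers Lhx6, Nkx2-1 and Lhx8 had none, while the GABA synthesis genes Gad1 and Gad2 and the vesicular GABA transporter gene Slc32a1 had one in CTX and MGE cultures alike, as the rule requires.

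**Figure D1:**
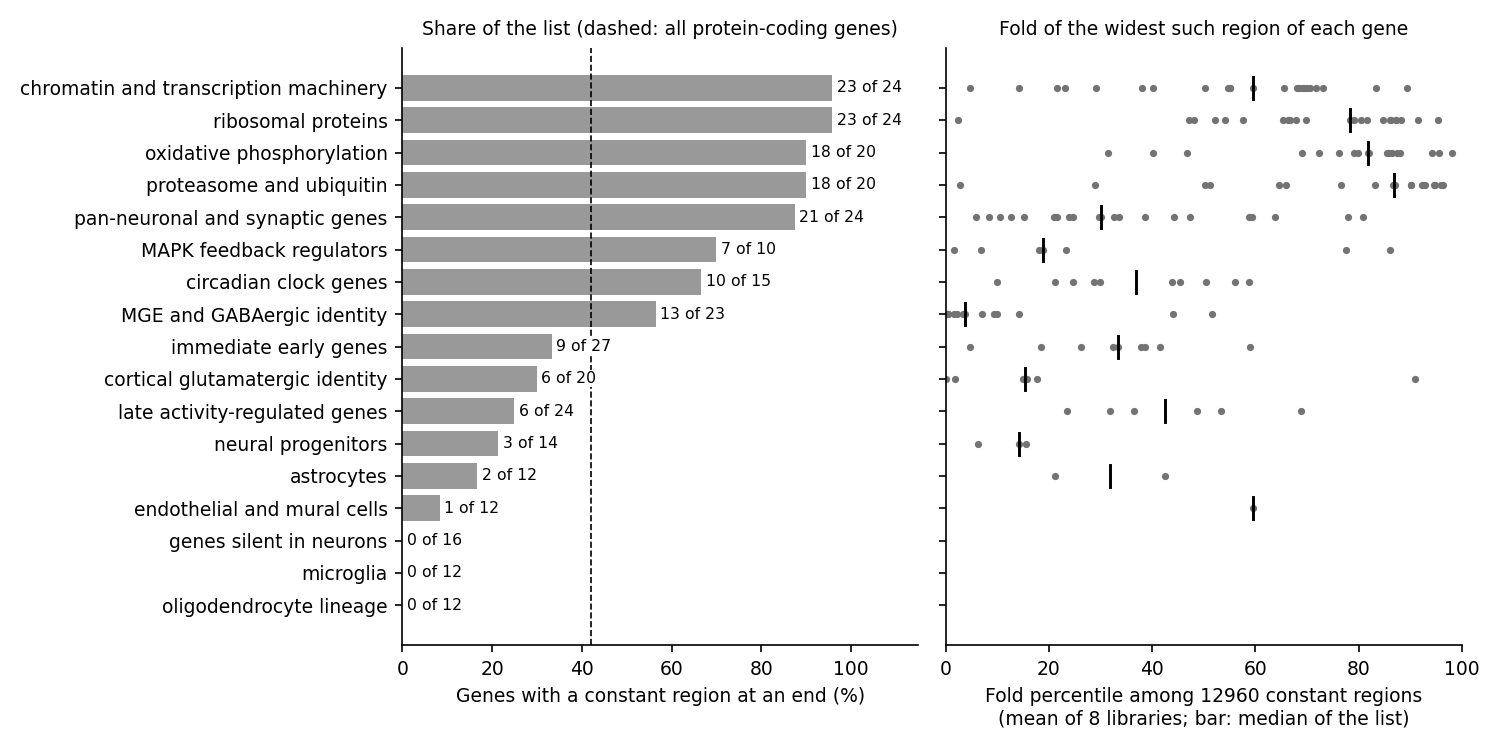
Left, share of each gene list with a constant region within 2 kb of a gene end (%, bars, with counts; dashed line, 42.0% of all protein-coding genes); right, for each such gene the mean fold percentile of its widest region among the 12960 constant regions (points; bar, median of the list). Lists of housekeeping genes sit at 90% or above on the left, while MGE and GABAergic identity genes have a median percentile of 3.78.

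Fold, the enrichment the authors' peak caller gives to each peak, ordered these lists differently from presence. It is the authors' own value and was ranked within each library among the 12960 constant regions. The median percentile over the 8 libraries was 86.9 for proteasome genes, 81.9 for oxidative phosphorylation, 78.3 for ribosomal proteins and 59.5 for chromatin genes, beside 63.0 for all 8073 regions. It was 42.5 for late activity-regulated genes, 36.9 for clock genes, 33.5 for immediate early genes, 30.0 for neuronal genes, 18.9 for MAPK regulators, 15.3 for glutamatergic and 3.78 for MGE and GABAergic identity genes. Gad1 had 2 constant regions, of which the wider, 895 bp from its gene end, is given. The fold of this region was 2.07 and 2.09 with KCl and 2.23 and 2.05 without in CTX. In MGE it was 1.72 and 1.88 with KCl and 1.78 and 1.77 without. It was thus higher in each CTX library than in any MGE library. The region of Gad2 showed the same order, with folds of 2.27 to 2.77 in CTX and 1.56 to 1.76 in MGE. Both genes were chosen after their values were seen. In width, which is tested below, neither region passed between cultures. The lower fold in MGE thus does not show less of the mark there. Across regions fold fell as width rose in every library, so fold alone does not give the extent of the mark.

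Around the transcript start, called bases lay mostly on the gene side. The profile was taken over the 5338 regions whose listed starts lay on 1 strand. At 250 bp downstream 80.4% to 94.6% of them were called, depending on the library. At the start itself it was 64.1% and 77.3% with KCl and 44.4% and 74.7% without in CTX, and 52.2% and 68.4% with KCl and 53.1% and 44.4% without in MGE. The share fell to 37.1% to 64.0% at 100 bp upstream, and was 44.8% to 65.4% at 300 bp upstream. In each library the upstream maximum was thus lower than the downstream one, with a dip between them.

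The downstream flank reached farther in the KCl libraries. At 1000 bp downstream, 27.9% and 33.1% of the regions were called with KCl and 16.2% and 22.3% without in CTX, and 20.9% and 27.4% with KCl and 14.5% and 14.3% without in MGE. Within each culture both KCl libraries exceeded both unstimulated ones, with group means of 30.5% ± 3.67 against 19.2% ± 4.25 in CTX and 24.1% ± 4.60 against 14.4% ± 0.0928 in MGE (SD, n = 2). At 1000 bp upstream the groups overlapped in CTX and in MGE, with 8.69% and 9.85% against 7.21% and 8.99%, and 6.35% and 9.40% against 7.06% and 7.46%. The share of called bases that lay downstream was 66.3% and 65.2% with KCl and 64.7% and 63.5% without in CTX, and 68.3% and 65.5% with KCl and 63.9% and 63.0% without in MGE, so that each KCl library exceeded all 4 unstimulated ones. A two-sided exact permutation test within cultures gave p = 0.0556 for this share and for the share called at 1000 bp downstream, the smallest p this design allows (adjusted p = 0.0741 over 4 values tested), so neither could pass 0.05. None of the 4 tests, which include those of the width and fold ratios below, was among the planned ones.

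**Figure D2:**
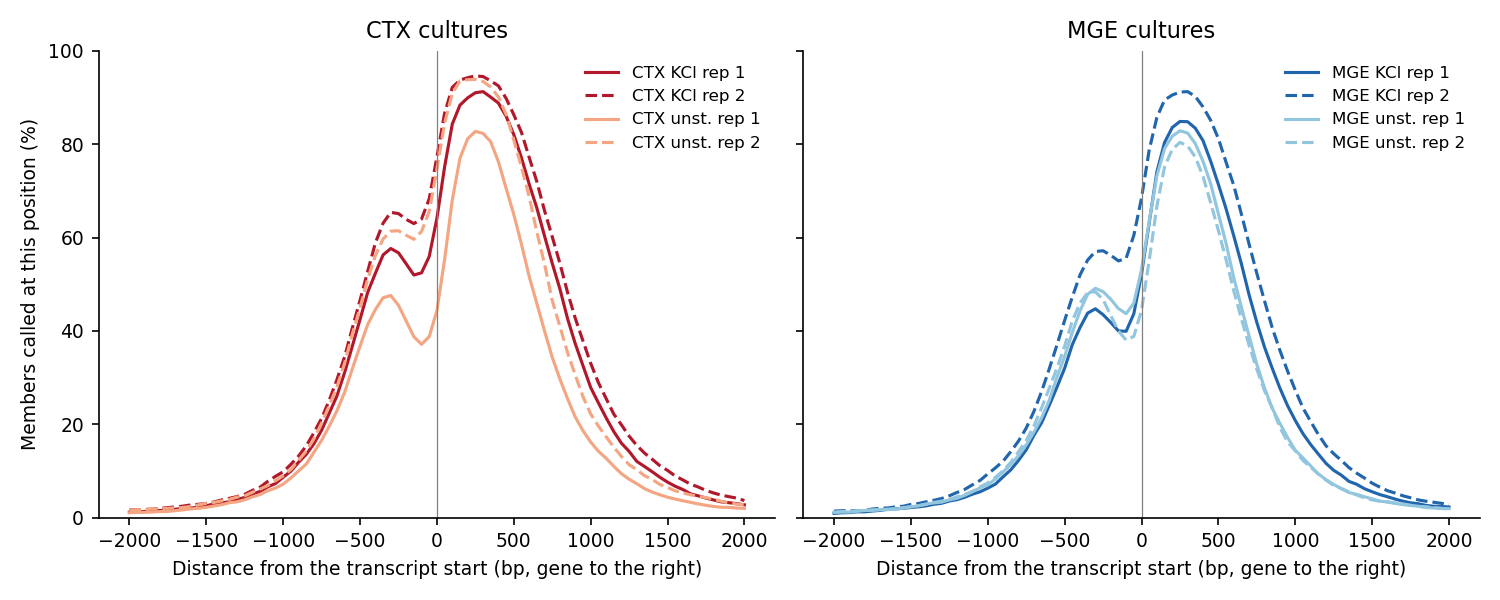
Percent of the 5338 regions called at each distance from the transcript start (bp, the gene to the right) in CTX (left) and MGE cultures (right), 1 line per library (solid, replicate 1; dashed, replicate 2). The lines peak 250 to 300 bp inside the gene, dip near 100 bp upstream, and at 1000 bp downstream the KCl lines of each culture lie above its unstimulated ones.

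Width, the called bases within a region, was compared with that of constant regions away from gene ends, since the libraries differ in how many bases they call. The median width at gene ends was 1102 and 1233 bp with KCl and 846 and 1119 bp without in CTX, and 894 and 1106 bp with KCl and 859 and 826 bp without in MGE. Away from gene ends it was 910 and 1157, 831 and 1134, 763 and 1032, and 874 and 855 bp, in the same order. The ratio of the former to the latter was 1.21 and 1.07, 1.02 and 0.987, 1.17 and 1.07, and 0.983 and 0.966. All 4 KCl libraries were above all 4 unstimulated ones, with means of 1.14 ± 0.103 against 1.00 ± 0.0221 in CTX and 1.12 ± 0.0707 against 0.974 ± 0.0118 in MGE (SD, n = 2). The exact permutation p within cultures was again 0.0556, the smallest possible (adjusted p = 0.0741). The order depends on the peaks used. With each list cut to the same called bases, an alternative added after seeing the data, the ratio of mean widths differed by 0.246 in CTX and 0.195 in MGE, against 0.127 and 0.129 with the full lists, but MGE KCl replicate 1 (1.11) was below CTX unstimulated replicate 2 (1.16). With peaks of a −log10 q of at least 5, CTX KCl replicate 2 (1.19) was below CTX unstimulated replicate 1 (1.28), so that the treatments overlapped within CTX.

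Fold was higher at gene ends than away from them in each library and showed no such order by treatment. The median fold at gene ends was 4.21 and 4.86 with KCl and 4.02 and 4.77 without in CTX, and 4.54 and 4.42 with KCl and 4.51 and 4.03 without in MGE. Away from gene ends it was 3.33 to 3.86. The ratio was 1.25 ± 0.0109 with KCl and 1.24 ± 0.0796 without in CTX, and 1.27 ± 0.0266 and 1.24 ± 0.0381 in MGE (SD, n = 2), and KCl and unstimulated libraries overlapped (difference of 0.0246, exact permutation p = 0.5, adjusted p = 0.5). Of the top 1% of peaks by fold in each list, 76.1% to 87.3% lay in the 8073 regions, which held 13.0% to 27.0% of all peaks and 21.7% to 35.6% of called bases.

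**Figure D3:**
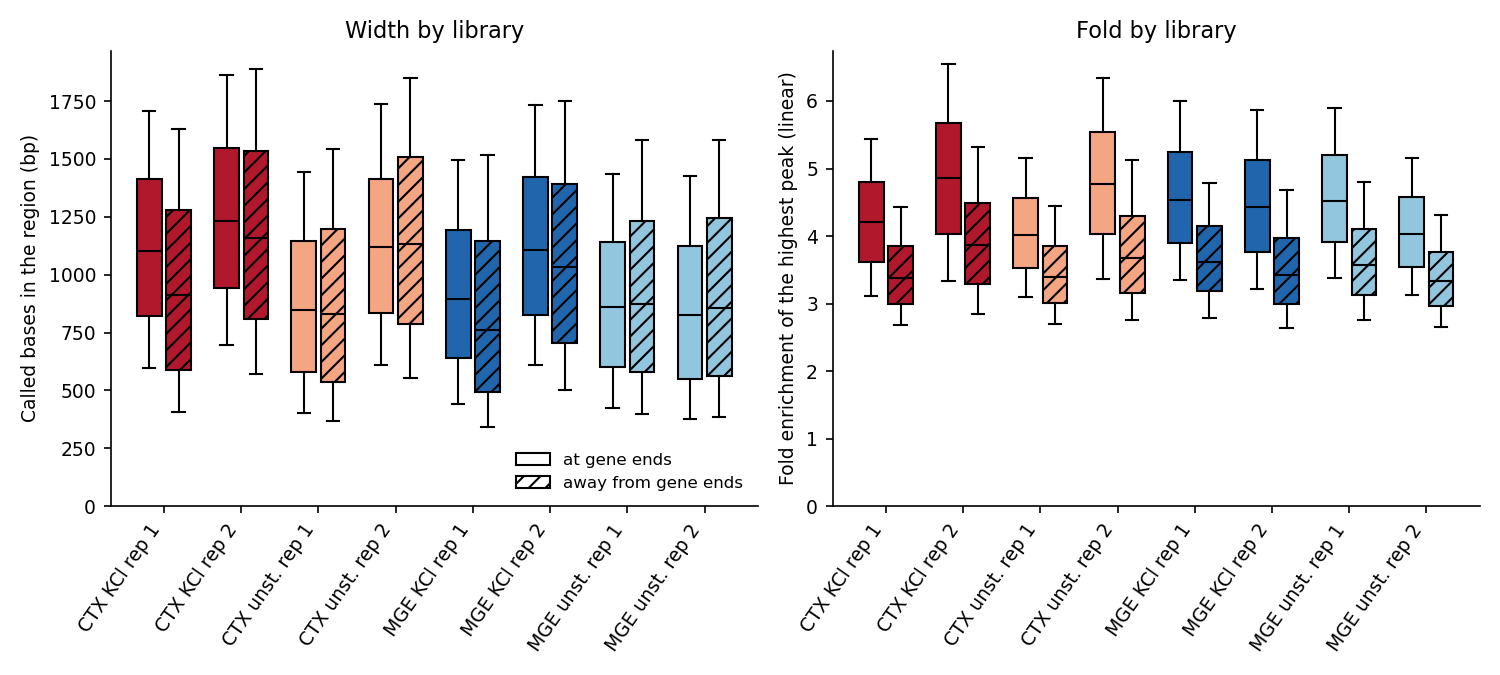
Called bases per region (left, bp) and fold of the highest peak (right, linear) in each library, for constant regions at gene ends (plain boxes) and away from them (hatched boxes); boxes span the quartiles with the median, and whiskers the 10th to 90th percentile. The gene-end median of fold is above the other in all 8 libraries, from 4.02 to 4.86 against 3.33 to 3.86.

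Wide regions were not the high ones. Across the 8073 regions, width and fold had a Spearman correlation between -0.463 and -0.0968 within a library. This is a description, since both values come from the same peaks. With the regions in 10 classes of equal size by width, the widest class (mean width 1810 bp) had a median fold percentile of 35.0, classes 2 to 7 had 67.7 to 70.7, and the narrowest (497 bp) 60.4. Regions with starts on both strands, 743 in all, had a median width of 1097 bp and a fold of 4.65, against 992 bp and 4.53 for the 5338 with starts on 1 strand. The 129 regions near a 3′ end only, with no listed start, had a median fold percentile of 37.6.

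The 10 widest regions lay at genes of varied function, and no theme was tested for them. First came the region shared by Fam72a and Srgap2, which encodes a regulator of neuronal shape and spine maturation. It spanned 3375 and 3462 bp with KCl and 2660 and 3403 bp without in CTX, and 2726 and 3382 bp with KCl and 3366 and 2550 bp without in MGE, with a mean fold percentile of 2.08. The region of Brd2, a bromodomain protein that binds acetylated histones, and of its neighbour H2-DMa varied less, from 2572 to 3000 bp over the 8 libraries, at a fold of 2.47 to 2.71 with KCl and 2.60 to 2.81 without. The other regions were those of Gm20783, of the neuregulin receptor gene Erbb4, of Lrrc7, which encodes a postsynaptic protein, of the ephrin receptor gene Epha5, of N-cadherin (Cdh2), of Tmem178b and of the transcription factor genes Sox4 and Pknox2. Their mean widths were 2672 to 2826 bp.

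Regions at the top of the fold ranking were narrow, with mean widths of 504 to 854 bp. The region of Exo1, a DNA repair exonuclease, had folds of 10.6 and 12.3 with KCl and 6.94 and 10.1 without in CTX, and 10.3 and 9.99 with KCl and 9.57 and 7.99 without in MGE, at widths of 429 to 573 bp. That of Lrr1, a substrate receptor of a ubiquitin ligase whose promoter is printed above, had 7.77 and 8.70, 8.77 and 11.7, 9.50 and 8.29, and 9.73 and 8.55, at 515 to 885 bp. Both reached a mean percentile of 99.9. The next were Pole3 (a subunit of DNA polymerase epsilon, beside 4933430I17Rik), Eme1 (a partner of the nuclease Mus81, beside Mrpl27), Cenpo (a centromere protein, beside Ptrhd1), Ndc80 (a kinetochore protein, beside Spdya), Slc35b1, Fam204a and the zinc finger genes Zfp866 and Zfp869, at mean percentiles of 99.3 to 99.7. No theme was tested for these 10.

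Between cultures, 257 of the 8073 regions differed in width and most did not pass the test. In MGE cultures 90 were wider, led by those of Spock3, which encodes the proteoglycan testican-3, and Kcnc2, which encodes the Kv3.2 potassium channel of fast-firing interneurons. In CTX cultures 167 were wider, with the largest difference at Cacna2d1, an auxiliary subunit of voltage-gated calcium channels, and others at Kbtbd11 and at Arpp21, a phosphoprotein of forebrain neurons. The comparison used limma on log2 width, centred on the median of all 12960 constant regions in each library and adjusted over all of them (Benjamini-Hochberg, threshold 0.05). Among all 12960, 3.30% were called wider in MGE and 3.36% wider in CTX, against 1.11% and 2.07% at gene ends. In either direction, the 257 calls were 3.18% of the gene-end regions, and away from gene ends 607 of 4887 (12.4%) were called. At an unadjusted p under 0.05, 491 gene-end regions were wider in MGE and 636 in CTX. In either direction these were 1127 of 8073, against 1624 of 4887 away from gene ends. The centred widths of the cultures did not overlap at 349 regions that were wider in MGE (4.32%, where all constant regions gave 6.50%) and at 301 wider in CTX (3.73%, where they gave 5.02%).

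The calls between cultures depend on the centring, on the peak threshold, on how width is taken and on single libraries. Constant regions were wider in CTX libraries on average. Removing the centring moved the median log2 difference of all constant regions from 0.04 to -0.17, a shift of -0.21, and 3 regions were then wider in MGE and 43 in CTX. With peaks of a −log10 q of at least 5 the counts were 0 and 5, of which 0 and 2 were among the main calls, and by the longest single peak 58 and 102, of which 44 and 69 were. Wider in MGE and wider in CTX were 34 and 51 regions without CTX KCl replicate 1, 46 and 59 without CTX KCl replicate 2, 31 and 65 without CTX unstimulated replicate 1, 111 and 86 without CTX unstimulated replicate 2, 25 and 63 without MGE KCl replicate 1, and 44 and 183 without MGE unstimulated replicate 1.

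At Spock3 (chr8:62950668-62953261) the width was 893 and 864 bp with KCl and 451 and 798 bp without in CTX, and 2493 and 2578 bp with KCl and 2236 and 1636 bp without in MGE. Each MGE library was above each CTX library, and the log2 difference in centred width was 1.81 ± 0.16 (SE, limma adjusted p = 0.00131). Its fold went the other way, at 3.61 to 4.87 in CTX and 2.76 to 3.28 in MGE. At Kcnc2 (chr10:112269784-112271962) the width was 816 and 850, 326 and 946, 1918 and 2050, and 2129 and 1353 bp, in the same order of groups, a log2 difference of 1.64 ± 0.24 (limma adjusted p = 0.00507). Here too no MGE library fell to the level of a CTX library.

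Further regions wider in MGE were those of Hnmt, which inactivates histamine (596.5 ± 74.5 bp in CTX, 1290.5 ± 98.0 bp in MGE, SD, n = 4), Grip1, a scaffold of glutamate receptors (1259 ± 385 and 2594 ± 604 bp), Ankrd55 (458.5 ± 205 and 910.0 ± 60.3 bp), Ptchd4 (957.5 ± 443 and 1788 ± 232 bp) and Tmem130 (426.5 ± 116 and 788 ± 197 bp). The region between Gm10710 and Dchs2, a large cadherin, had 961.5 ± 333 and 1782 ± 279 bp. A further pair lay near 3′ ends. The region 1182 bp from the end of Cdk12, a kinase of RNA polymerase II, had 472.5 ± 160 and 1006 ± 171 bp, and that 1634 bp from the end of Dtnb, a dystrobrevin, 544 ± 291 and 1224 ± 362 bp. Their log2 differences ran from 1.11 to 1.50 (limma adjusted p from 0.00212 to 0.0257).

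At Cacna2d1 (chr5:15933149-15936346) the width was 2895 and 3198 bp with KCl and 2793 and 2789 bp without in CTX, and 290 and 1484 bp with KCl and 357 and 283 bp without in MGE. MGE KCl replicate 2 lay between the other MGE libraries and the CTX libraries, and the log2 difference was -2.46 ± 0.35 (limma adjusted p = 0.00489). The fold at this region was 2.61 ± 0.200 in CTX and 4.30 ± 0.332 in MGE (SD, n = 4), so that the narrower peaks were the higher ones. At Arpp21 (chr9:112232131-112236243) the width was 2559 and 3164, 2921 and 3134, 367 and 1228, and 1088 and 842 bp in the same order, and the fold 2.01 to 2.11 in CTX and 2.89 to 3.71 in MGE. The log2 difference in width was -1.66 ± 0.25 (limma adjusted p = 0.00584). Both genes kept a peak in each MGE library, which the rule requires, with fewer called bases than in any CTX library.

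Other regions wider in CTX were those of Kbtbd11 (2091 ± 283 bp in CTX, 626 ± 356 bp in MGE), Efs, an adaptor of Src kinases (1747 ± 303 and 507 ± 110 bp), Vcan, the matrix proteoglycan versican (1910 ± 276 and 635 ± 383 bp), Npc1, a cholesterol transporter of lysosomes (1658 ± 367 and 507 ± 141 bp), and Dscam, an adhesion molecule (1908 ± 531 and 579 ± 152 bp). Kcnmb4, a subunit of BK potassium channels, had 1484 ± 204 and 542.5 ± 368 bp, Zfp703 1545 ± 684 and 472 ± 156 bp, and Gm715 1071 ± 226 and 351 ± 74.0 bp (SD, n = 4). Their log2 differences ran from -1.66 to -1.40 (limma adjusted p from 0.00242 to 0.0408). Of the 20 regions named for this comparison, those of Spock3, Cacna2d1, Kbtbd11, Efs, Npc1, Dscam and Gm715 passed under each of the 15 alternatives that could be fitted for them. A limit of 10 kb on region length, 1 of the 15, leaves out no region and repeats the main fit. With peaks of a −log10 q of at least 5, 1 of the 20, that of Hnmt, kept a peak in all 8 lists, and the other 19 could not be fitted. Without centring the calls of Kcnc2, Dtnb, Cdk12, Ankrd55, Ptchd4, Grip1, Gm10710, Tmem130, Arpp21, Vcan, Kcnmb4 and Zfp703 were lost. The longest single peak lost those of Hnmt and Ptchd4, the stricter −log10 q that of Hnmt, and the replicate block and the fit without a trend that of Kcnmb4. Leaving out 1 library lost the call of Dtnb (CTX KCl replicate 1 or CTX unstimulated replicate 1), Vcan (CTX unstimulated replicate 1), Zfp703 and Tmem130 (3 libraries each in turn), Ptchd4 (4) and Kcnmb4 (6).

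Regions wider in 1 culture tended to be lower in fold there. Of the 167 wider in CTX, 120 had a lower fold percentile in CTX, with medians of 28.7 in CTX and 45.4 in MGE. Of the 90 wider in MGE, 69 had a lower one in MGE, with medians of 31.2 in CTX and 22.5 in MGE. In all 8073 regions the medians were 63.3 and 63.4. Beside the 72.4% of all regions that overlapped a gene end, 58.9% of those wider in MGE and 64.1% of those wider in CTX did. A listed promoter was within 2 kb of 52 of the 90 and 118 of the 167, and 59.6% and 80.5% of these promoters had a CpG ratio above 0.6, against 83.6% for the nearest promoters of all regions.

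**Figure D4:**
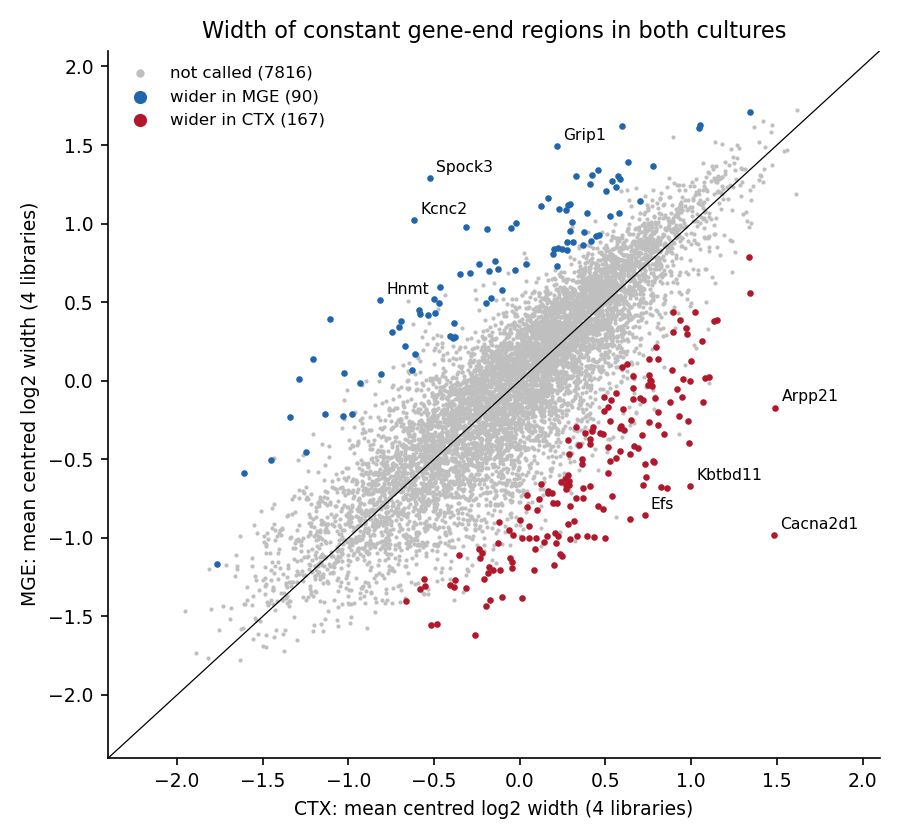
Mean centred log2 width of each of the 8073 regions in the 4 CTX libraries (x axis) and the 4 MGE libraries (y axis), with the line of equality. Blue points are the 90 regions wider in MGE and red points the 167 wider in CTX by limma (adjusted p under 0.05), and the other regions, in grey, lie along the line.

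Some genes of the lists had a region that passed between cultures, and those described here were named after their values were seen. Of 13 MGE and GABAergic identity genes with a region, 3 were wider in MGE and 0 in CTX. The region of Maf, a transcription factor of MGE-derived interneurons, measured 692 and 734 bp with KCl and 361 and 813 bp without in CTX, and 1216 and 1120 bp with KCl and 1136 and 1006 bp without in MGE, a log2 difference of 1.06 ± 0.22 (limma adjusted p = 0.0201). That of Sp9, a zinc finger factor, had a log2 difference of 0.93 (limma adjusted p = 0.0322) and that of Erbb4 0.36 (limma adjusted p = 0.0493). The median log2 difference over the 13 was 0.20, beside 0.03 for all regions. It was not particular to this list, with 0.21 for neuronal, 0.16 for proteasome and 0.16 for glutamatergic genes. The lists ran from -0.26 (astrocytes, 2 regions) to 0.49 (progenitors, 3 regions). Erbb4 passed under 1 of 15 alternatives, Maf under 10 and Sp9 under 9, and none of the 3 without centring. The 1 that Erbb4 passed, a limit of 10 kb on region length, leaves out no region and repeats the main fit. It is counted in each such number here and in the next paragraph.

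Among the glutamatergic identity genes, Tle4, a corepressor of deep-layer neurons, had a region wider in CTX. It measured 1234 and 1444, 968 and 1192, 286 and 926, and 337 and 290 bp in the order of groups above, a log2 difference of -1.37 ± 0.28 (limma adjusted p = 0.0184). The cultures did not overlap, with 926 and 968 bp closest, and Tle4 passed under 12 of 15 alternatives. Of 3 progenitor genes, Hes5 (log2 difference 0.66, limma adjusted p = 0.0402) and Dll1 (0.49, limma adjusted p = 0.0340) were wider in MGE, and passed under 3 and 5 of 15 alternatives. Of the 18 oxidative phosphorylation genes, Cox4i1 was wider in CTX (-1.07, limma adjusted p = 0.0334, 9 of 15 alternatives), in a region that also holds ends of Emc8 and Gm27021. None of the 23 ribosomal, 18 proteasome, 23 chromatin, 21 neuronal, 9 immediate early, 6 late, 10 clock or 7 MAPK genes passed in this comparison.

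KCl changed the width of few regions by the test. In CTX cultures limma called 0 of 8073 regions wider and 0 narrower with KCl, and 0.00772% of all constant regions in each direction. At an unadjusted p under 0.05, 378 were wider and 143 narrower, in all 521 of 8073, against 720 of 4887 away from gene ends. In MGE cultures 4 regions were wider with KCl and 0 narrower, beside 0.0694% and 0.0386% of all constant regions. At an unadjusted p under 0.05 they were 698 and 260, in all 958 of 8073, against 900 of 4887 away from gene ends. The median log2 difference at gene ends was 0.02 in CTX and 0.04 in MGE, against -0.14 and -0.15 away from gene ends. Without centring the median of all constant regions moves up by 0.21 in CTX, to 0.18, and by 0.18 in MGE, to 0.15, so these medians are relative to it and only the gap between the places is free of the scaling.

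The 4 regions called in MGE were those of Cachd1, 1700029J07Rik with Ufsp2, Mknk2 and Camk1g. Cachd1, a relative of the calcium channel α2δ subunits, had 1520 and 1527 bp with KCl and 302 and 361 bp without in MGE, and 1941 and 2456 bp against 839 and 2129 bp in CTX. Its log2 difference was 2.03 ± 0.30 in MGE and 0.50 ± 0.30 in CTX. Mknk2, a kinase that acts on translation initiation, had 1228 and 1768 bp with KCl and 433 and 521 bp without in MGE, and 2002 and 2060 against 1496 and 1724 bp in CTX (log2 difference 1.46 ± 0.21 and 0.13 ± 0.21). In both genes the MGE unstimulated libraries were the narrow ones, while the MGE KCl libraries lay within the range of CTX but for the 1228 bp at Mknk2.

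The region shared by 1700029J07Rik and Ufsp2, a protease of the UFM1 pathway, had 955 and 1311 bp with KCl and 310 and 237 bp without in MGE, and 1245 and 1405 against 1007 and 1133 bp in CTX (1.87 ± 0.27 and 0.10 ± 0.27). Camk1g, a calmodulin-dependent kinase, had 1958 and 2441 bp with KCl and 715 and 909 bp without in MGE, and 2086 and 2512 against 1212 and 1588 bp in CTX (1.26 ± 0.18 and 0.52 ± 0.18). The KCl libraries of Camk1g were thus above the unstimulated ones in each culture. All 4 had a limma adjusted p of 0.0410 in MGE. They depended on the processing. By the longest single peak none of the 4 was called (1 other region was), without the trend in limma's variance 1 of the 4 and 3 others were, and at the stricter −log10 q 1 of the 4 was among 13 called. No call was made without centring, with the replicate number as a block, or without CTX KCl replicate 1, CTX KCl replicate 2 or MGE KCl replicate 1. Without MGE unstimulated replicate 1, 57 regions were called wider, without MGE unstimulated replicate 2 10, and 2 without CTX unstimulated replicate 1, CTX unstimulated replicate 2 or MGE KCl replicate 2, in turn. Narrower with KCl were 13 without MGE KCl replicate 2 and 2 without MGE unstimulated replicate 1. With libraries centred on regions away from gene ends, a choice made after seeing the data, 94 regions were wider with KCl in MGE and 8 narrower.

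In CTX the regions with the lowest p did not pass. Bbs5, a protein of the ciliary BBSome, had 1131 and 1466 bp with KCl and 245 and 385 bp without (log2 difference 1.86 ± 0.28, limma adjusted p = 0.0725). The region of Atp5d, a subunit of ATP synthase, and Cbarp had 700 and 796 bp with KCl and 1245 and 1900 bp without (-1.25 ± 0.18, limma adjusted p = 0.0725). At Clba1 the values were 1706 and 1805 against 527 and 743 bp (1.28 ± 0.24, limma adjusted p = 0.141). The groups did not overlap at any of the 3, and in MGE cultures the same directions were seen, with 955 and 1149 against 535 and 695 bp at Bbs5, 1108 and 1315 against 1874 and 1921 bp at Atp5d and 1164 and 1458 against 401 and 402 bp at Clba1. Left out in turn, CTX unstimulated replicate 2 gave 5 wider regions in CTX and CTX KCl replicate 2 gave 2 narrower ones.

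The difference between the responses of the cultures passed for 0 regions, with 0.00% called in either direction among all constant regions. At an unadjusted p under 0.05 it passed for 194 and 123, in all 317 of 8073, against 384 of 4887 away from gene ends. The lowest p belonged to 1700029J07Rik (MGE minus CTX response 1.77 ± 0.38, limma adjusted p = 0.598), Jarid2, a partner of the Polycomb complex PRC2 (1.22 ± 0.27, limma adjusted p = 0.598), and Mknk2 (1.33 ± 0.29, limma adjusted p = 0.622). Without MGE unstimulated replicate 1, 3 regions passed.

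**Figure D5:**
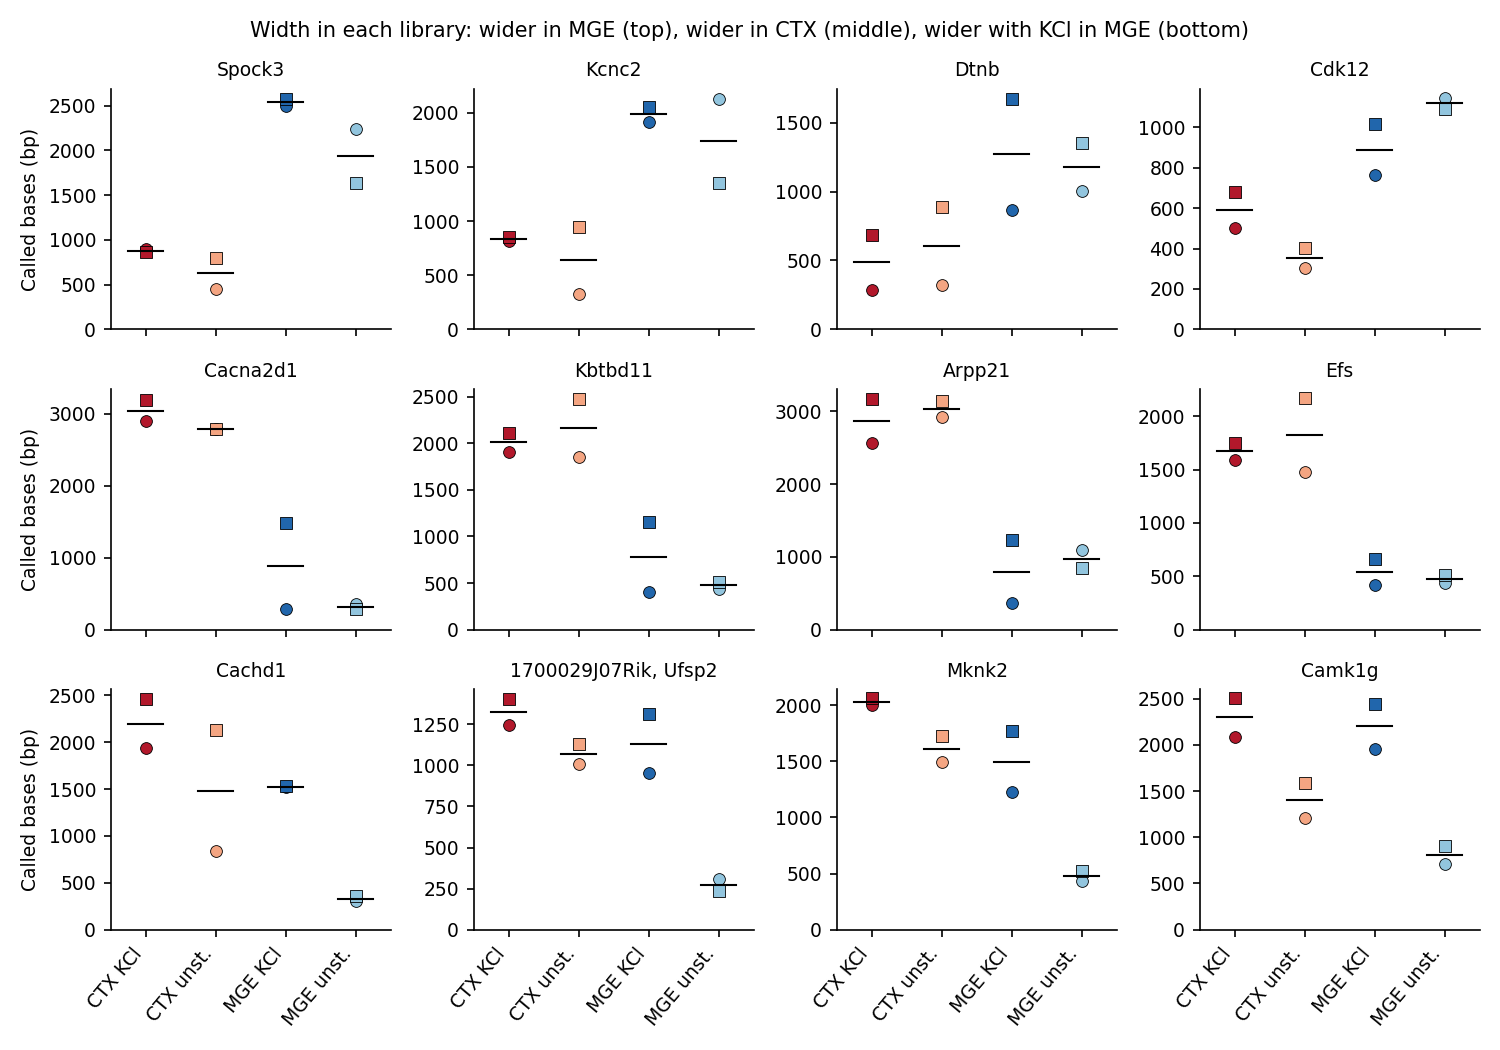
Called bases (bp) in each library for the first 4 regions wider in MGE (top), the first 4 wider in CTX (middle) and the 4 wider with KCl in MGE (bottom); circles are replicate 1, squares replicate 2 and lines group means. In the bottom row the MGE unstimulated libraries are the lowest, at 237 to 909 bp.

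Counted by overlap, more gene-end regions were wider with KCl than narrower, in both cultures. In CTX the centred widths of both KCl libraries exceeded both unstimulated ones at 1776 regions (22.0%), where all constant regions gave 18.5%, and lay below at 1260 (15.6%), where they gave 22.6%. In MGE the counts were 1895 (23.5%, against 19.9%) and 1513 (18.7%, against 24.4%). Away from gene ends the order was turned, with 619 above and 1664 below in CTX and 689 and 1647 in MGE. In both cultures at once, 694 gene-end regions were wider with KCl (8.60%, against 6.95%) and 435 narrower (5.39%, against 9.43%). These shares move with the centring, which sets how many regions lie above and below.

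At activity-regulated genes no constant region passed in either culture. Npas4, a factor induced by calcium entry, had a region 1073 bp from a gene end with 1120 and 1259 bp with KCl and 461 and 727 bp without in CTX, and 1163 and 1316 against 488 and 535 bp in MGE. The groups did not overlap, and the log2 differences were 0.83 ± 0.26 and 1.10 ± 0.26 (limma adjusted p = 0.312 and 0.108). At Trib1, a pseudokinase, the values were 2303 and 2931 against 779 and 1952 bp in CTX and 1952 and 2563 against 805 and 707 bp in MGE (0.87 ± 0.26 and 1.39 ± 0.26, limma adjusted p = 0.290 and 0.0583). Ier2, with a region 1227 bp from its end, had 1495 and 1550 against 760 and 976 bp in CTX and 1307 and 1409 against 873 and 581 bp in MGE (limma adjusted p = 0.433 and 0.195). At Plk2, a kinase of synaptic scaling, the widths were 1786 and 2178 against 1876 and 2010 bp, and 1873 and 1983 against 1800 and 1826 bp (log2 differences -0.18 ± 0.17 and -0.09 ± 0.17). The fold at Npas4 was 3.41 and 3.84 with KCl and 3.63 and 4.42 without in CTX, and 3.53 and 2.95 against 3.95 and 4.06 in MGE, so that the wider peaks did not have a higher fold. Over the 9 immediate early genes the median log2 difference was 0.07 in CTX and 0.44 in MGE, beside 0.02 and 0.04 for all regions. In MGE the median was 0.40 for glutamatergic genes and 0.34 for MAPK regulators, and the lowest of the lists was -0.48 (endothelial and mural, 1 region).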

How the data were processed

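The 8 deposited broadPeak lists, 1 per library, were used as the authors made them. The genome was mm10 and the software named was deepTools 3.4.3, MACS3 3.0.0a7, Bowtie2 2.3.3 and cutadapt 1.18, per the submitters' processing notes. Settings and any input control: not given in the sources used here. Column 7 holds the authors' fold enrichment, a linear ratio per peak. The deposited −log10 q, lowest at 1.30 to 1.35 in the lists, served for the stricter lists and not as a test of regions. The deposited −log10 p and score were not used.

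Peaks were merged with Python 3.11.15 (pandas 2.3.3, numpy 2.4.6, scipy 1.17.1). Width is the summed called bases of a library in a region, and fold the highest of its peaks there. Gene spans, strands and promoters came from RefSeq tables of GRCm38.p6. Log2 widths were fitted with limma 3.58.1 in R 4.3.3 (means of the 4 groups, eBayes with trend) over the 12960 constant regions, each library centred on its median. A region must have a peak in every library, so widths are compared given presence. On simulated data of this size the fit recovered 49% of log2 differences of 1 and 93% of 2 in the comparison of cultures. Of the calls made there, 4.70% were false. The simulation drew independent noise, with spreads shuffled across regions and no shifts between libraries. It therefore does not give the share of false calls in the real data.

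Regions named are the 10 widest, the 10 highest in mean fold percentile, the 10 largest called differences in each direction between cultures, up to 5 per direction for KCl (where none passed, the 3 of lowest p), and list genes as examples. The rule takes list examples in order of width, and those given with values (Gad1, Gad2, Npas4, Trib1, Ier2, Plk2 and the genes that passed) were instead chosen after their values were seen. A gene with several regions is represented by the widest. Members and lists were chosen with earlier results of these data known. A few list genes are not reported here. Sets were described by counts and medians and not tested. Alternatives were other centrings, the longest single peak, a −log10 q of at least 5, equal called bases, other distances, a replicate block and each library left out. Same-numbered libraries had correlations of their deviations from -0.0857 to 0.178, so the numbers were not taken to pair them. The 29 peaks on other sequences were left out.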

Additional observations from a re-analysis of the deposited data

Results flagged for a closer look

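At 5 of the named regions, every KCl library of a culture lay on one side of its unstimulated libraries and every one of the other culture on the opposite side, in centred width. None of these differences between cultures passed limma's test of the difference. The region of Jarid2 had a response (KCl minus unstimulated, log2) of -0.11 in CTX and 1.11 in MGE, a difference of 1.22 (limma adjusted p = 0.598). Ier5, an immediate early gene, had -0.14 and 0.65, a difference of 0.789 (limma adjusted p = 0.969). At the 3′ end of Cdk12 the order was turned, with 0.53 in CTX and -0.52 in MGE, a difference of -1.05 (limma adjusted p = 0.809). The wide regions of Cdh2 and Lrrc7 had smaller ones, -0.08 and 0.26 with a difference of 0.339 at Cdh2 (limma adjusted p = 0.994), and -0.08 and 0.25 with a difference of 0.327 at Lrrc7 (limma adjusted p = 0.969).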

How the results depend on the processing

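The number of constant gene-end regions was 8073, 3579 with peaks of a −log10 q of at least 5, 3736 where peaks had to cover 50% of the region in every library, and 8085 to 8415 with 1 library left out. Between cultures, regions wider in MGE and in CTX numbered 90 and 167. They were 3 and 43 without centring, 58 and 102 by the longest single peak and 0 and 5 at the stricter −log10 q, and ranged from 25 to 111 and from 51 to 213 with 1 library left out. With KCl in CTX the counts wider and narrower were 0 and 0, 1 and 1 after quantile normalization, 1 wider when centred on regions away from gene ends, and 0 to 5 and 0 to 2 with 1 library left out. With KCl in MGE the 4 wider regions became 0 without centring, 8 after quantile normalization, 1 by the longest peak, 13 at the stricter q and 94 when centred away from gene ends, and the 0 narrower became 1, 4 and 8 under quantile normalization, the stricter q and that centring. With 1 library left out they ranged from 0 to 57 and from 0 to 13. The difference of responses gave 0 regions, and 0 to 3 wider in MGE with 1 library left out. The cause of these changes was not tested.

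Replicate numbers were not taken to pair the libraries, from correlations of centred widths. In CTX, replicate 2 had more peaks than replicate 1 with KCl (66827 against 45059) and without (64878 against 41537). In MGE it had more with KCl and fewer without. Whether the numbers pair libraries was not tested. With the replicate number as a block, 76 and 145 regions were wider in MGE and in CTX, 0 were wider with KCl in MGE and 0 in CTX. At a distance of 5 kb, 3 oligodendrocyte and 1 microglia genes had a constant region in place of 0. The KCl minus unstimulated difference in the downstream share of called bases was 1.69 percentage points in CTX and 3.47 in MGE, 2.55 and 4.98 at the stricter q, and 1.11 to 2.27 and 2.11 to 4.83 with 1 library left out. The same difference in the ratio of mean widths was 0.127 and 0.129, 0.248 and 0.309 at the stricter q, 0.246 and 0.195 with equal called bases, and 0.0681 to 0.185 and 0.110 to 0.148 with 1 library left out. The regions of the tested comparisons and the list genes that passed between cultures kept direction in each alternative run for them, with 438 results on the same side of the threshold, 133 weaker and 3 stronger. The other regions given with values were not refitted singly. Limiting regions to 10 kb changed nothing, as none is longer, so its results are among the 438 by construction. The unknown depth leaves the precision of each width and fold unknown.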
